A study of Mus musculus with 28 samples.

Results

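Gabrr1 and Gabrr2 encode the rho1 and rho2 subunits of GABA-gated chloride channels. Their RNA and promoter histone marks were described in mouse primordial germ cells (PGCs, from which sperm and eggs descend) lacking Setdb1, a histone H3 lysine 9 methyltransferase. The members are the 2 of 22138 rows of the gene table that carry these names, and the same 2 rows of the promoter table. The pair was chosen by measured values, with the RNA difference between Setdb1-deleted and control PGCs known, so that difference is given as a description with no test. The difference between female and male controls does not use the deleted libraries, and it was tested.

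The RNA libraries came from gonads of E13.5 embryos, sorted by flow cytometry into SSEA1-positive PGCs and SSEA1-negative somatic cells. KO PGCs were Setdb1 delta/-, with 2 libraries per sex. Controls were Het1 (delta/+) and Het2 (flox/-), with 2 libraries each per sex, pooled as 4 Het libraries per sex, and 1 wild-type (WT, flox/+) library per sex. Male PGCs and male gonadal soma of C57BL/6 mice gave 1 library each, for 16 RNA libraries of 28 samples in all. The ChIP-seq libraries used here were 1 per mark, sex and genotype for H3K9me3 and H3K27me3, with Het being flox/-, and 1 H3K9me3 library of C57BL/6 male soma. Every genotype of this cross, WT included, carries a flox or a delta allele. The agent that recombined the flox allele is not given in the sources used here, nor is whether replicates came from separate embryos or pools, so p-values measure the spread between libraries.

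These subunits assemble into pentameric chloride channels that open when GABA binds. These receptors, once called GABA-C receptors, respond slowly, desensitise little and resist bicuculline, the classical blocker of other GABA-A receptors. They are best known in the retina, where they mediate inhibition at the terminals of bipolar cells. Gabrr1 and Gabrr2 lie next to each other in mouse, and Gabrr3, the gene of the remaining subunit of this class (rho3), lies elsewhere. H3K9me3, the mark made by Setdb1, and H3K27me3, made by Polycomb complex PRC2, both mark repressed chromatin.

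The promoters are shown because the 2 neighbouring genes gave different RNA values and the histone data were taken around the start site. The RefSeq start may differ from the Ensembl start on mm9 that the histone windows used. Each window runs from 250 bases before to 50 bases after the RefSeq start, 5′ to 3′ on the plus strand, from RefSeq on GRCm38.p6: chr4:33132306-33132605 for Gabrr1 and chr4:33062862-33063161 for Gabrr2. Capitals mark matches to GGGCGG (the core of a GC box, here also as its reverse complement CCGCCC) and to CCAAT.
Gabrr1: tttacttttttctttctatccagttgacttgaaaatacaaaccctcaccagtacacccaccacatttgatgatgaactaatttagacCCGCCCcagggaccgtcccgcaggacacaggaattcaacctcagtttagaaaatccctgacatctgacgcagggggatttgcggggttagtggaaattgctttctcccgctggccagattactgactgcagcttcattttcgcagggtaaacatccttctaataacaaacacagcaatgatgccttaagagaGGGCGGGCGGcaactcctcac
Gabrr2: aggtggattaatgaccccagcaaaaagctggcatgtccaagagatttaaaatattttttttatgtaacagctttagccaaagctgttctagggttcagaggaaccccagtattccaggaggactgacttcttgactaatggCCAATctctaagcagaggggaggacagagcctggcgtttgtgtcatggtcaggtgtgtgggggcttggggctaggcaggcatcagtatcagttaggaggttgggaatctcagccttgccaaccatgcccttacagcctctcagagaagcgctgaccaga
The Gabrr1 window held 9 CpG dinucleotides and 47.3% G and C, and the Gabrr2 window 2 CpG and 49.3%. Over all 32851 RefSeq promoter windows of this length the medians were 7 CpG and 52.7%, and 54.2% of windows had fewer CpG than Gabrr1 against 14.1% for Gabrr2. GGGCGG matched Gabrr1 at 3 places: 2 overlapping matches on the plus strand whose first bases were 29 and 33 bases from the start site, and 1 on the minus strand at -163. CCAAT matched Gabrr2 once, at -109. Both strands were searched, and 35.7% of all windows held GGGCGG and 37.4% CCAAT. The letters of a TATA box (TATAAA, in 13.6% of windows), an E-box (CACGTG, 7.15%) and an E2F motif (TTCCCGCC, 2.19%) were found in neither window. A match is a description of letters, not of a bound site.

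As a check of the deletion, Setdb1 RNA was 37.53 to 52.05 RPKM in male Het and 27.11 to 31.2 in male KO, and 38.24 to 58.89 in female Het and 31.28 to 34.65 in female KO. Whole-gene RPKM includes exons outside any deleted part. The 8 germ cell markers (such as Pou5f1 and Ddx4) summed to 1796 to 2225 RPKM in male Het, 1906 to 2103 in male KO, 1309 to 1718 in female Het, 909 to 1229 in female KO and 16.2 in soma. In bulk libraries, fewer cells of a type and less RNA per cell cannot be told apart. Female Het2 replicate 1 had the lowest mean rank correlation with libraries of its sex (0.946, where the other female libraries held 0.954 to 0.966). It stood apart in its summed erythroid markers of 257.4 RPKM, where the other female Het libraries held 1.78 to 3.62.

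Gabrr1 (ENSMUSG00000028280) RNA was near 0 in control PGCs and stood at 4.86 RPKM (reads per kilobase of gene, scaled to library size) or more in every KO library. In male Het PGCs it was listed at 0, 0.10, 0.03 and 0 RPKM, and in male KO PGCs at 6.36 and 4.86. In female Het PGCs it was 0.15, 0.08, 0.56 and 0 RPKM, and in female KO PGCs 26.15 and 18.46. Every KO library lay above every control library of both sexes, and both female KO libraries lay above both male KO libraries, as the plot of RPKM by library shows. Both WT libraries were at 0, the C57BL/6 male PGC library at 0.23 and the C57BL/6 male soma library at 0.07 RPKM.

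**Figure D1:**
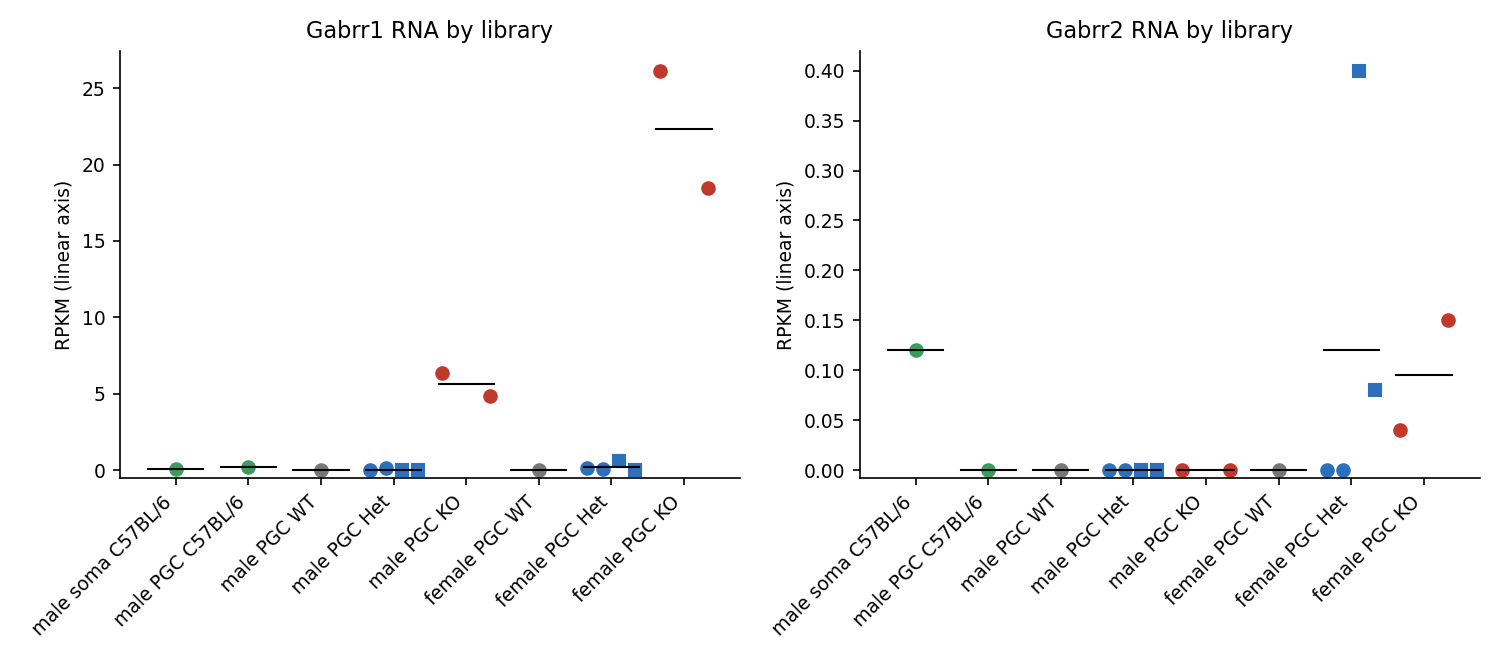
RPKM of Gabrr1 and Gabrr2 (vertical axis) in each RNA library, by group (horizontal axis); squares are Het2 libraries, circles all others, and black lines group means. The KO libraries of Gabrr1 stand at 4.86 to 26.15 RPKM, above all controls, while Gabrr2 stays at 0.40 RPKM or lower.

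Group means of Gabrr1 were 0.0325 ± 0.0472 RPKM in male Het (SD, n = 4), 5.61 ± 1.06 in male KO (n = 2), 0.198 ± 0.249 in female Het (n = 4) and 22.3 ± 5.44 in female KO (n = 2). The KO mean was 173 times the Het mean in males and 113 times in females, and these ratios rest on Het means close to 0. In descending order the levels were female KO, male KO, C57BL/6 male PGC, female Het, male soma, male Het and both WT. All neighbours below male KO in that order lay within the range of the female Het libraries. Within each KO library, 63.8% and 60.9% of all genes were lower than Gabrr1 in males, and 85.7% and 79.9% in females.

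On the log2(RPKM + 1) scale used for testing, KO minus Het for Gabrr1 was 2.67 in males (SE 0.23), 4.28 in females (SE 0.23) and 3.48 averaged over the sexes (SE 0.16). With a pseudocount of 0.1 in place of 1 these were 5.48, 6.56 and 6.02. Gabrr1 passed the filter for low values, RPKM 1 or more in at least 2 of 12 libraries, only through its KO libraries. For background, limma at an adjusted p below 0.05 called 0.614% of 13518 genes in males, 0.407% in females and 1.04% over both sexes. The female count of 55 genes was 3 without female KO replicate 1 and 164 without female Het2 replicate 1, and the male count of 83 was 29 without male KO replicate 1 and 36 without male KO replicate 2. Both KO libraries lay above all 4 Het libraries for 9.01% of tested genes in males, 14.8% in females and 3.06% in both sexes, and both female KO libraries lay above both male KO libraries for 37.5%. These shares stand beside the Gabrr1 pattern only for scale, because the gene was chosen with it known.

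Gabrr2 (ENSMUSG00000023267), the neighbouring gene, stayed at or near 0 in KO. It was listed at 0 RPKM in all 8 male PGC libraries, KO included, and in the female WT library. Female Het libraries held 0, 0, 0.40 and 0.08 RPKM and female KO libraries 0.04 and 0.15, which overlap. Means were 0.12 ± 0.190 in female Het (SD, n = 4) and 0.095 ± 0.0778 in female KO (n = 2), and male soma held 0.12. No library reached RPKM 1, so Gabrr2 did not pass the filter, and KO minus Het was 0 in males and -0.02 in females on the log2(RPKM + 1) scale. Gabrr3 (ENSMUSG00000074991) was listed at 0 in all 16 RNA libraries.

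Between the sexes, no difference was detected in Het for either gene. The exact two-sided permutation test of log2(RPKM + 1), over 4 against 4 libraries, gave p = 0.257 for Gabrr1 (female minus male 0.19) and p = 0.429 for Gabrr2 (0.15). Both were 0.429 after Benjamini-Hochberg adjustment over the 2 genes, where 0.0286 is the smallest p possible. Het1 minus Het2 was -0.06 for Gabrr1 and -0.15 for Gabrr2, given as values only. The limma fit, which called 31.9% of genes between the sexes and 0.0148% between Het1 and Het2, is not used for either gene in these contrasts, since Gabrr1 entered it through its KO libraries alone. Levels this low limit what either comparison can detect, and the depth of the libraries is unknown.

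Female Het2 replicate 1, the library that stood apart, touches both genes. It held the highest control value of the cross for Gabrr1 (0.56 RPKM) and for Gabrr2 (0.40 RPKM). Without it, KO minus Het in females was 4.42 for Gabrr1 and 0.09 for Gabrr2, and Het1 minus Het2 was 0.10 for Gabrr1, each on the log2 scale. Its part in the Gabrr1 and Gabrr2 values was not tested beyond that.

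Some somatic markers moved with KO, as Gabrr1 did. The 5 Leydig markers summed to 3.42 to 5.32 RPKM in male Het and 26.9 to 56.1 in male KO, with 5 of 5 above all Het libraries, but to 4.88 to 12.1 in female Het and 5.61 to 6.08 in female KO, with 0 of 5 above. The 4 stromal markers summed to 11.0 to 20.8 in male Het and 18.7 to 26.0 in male KO (2 of 4 above), and to 11.5 to 28.5 in female Het and 29.1 to 41.9 in female KO (3 of 4 above). Pregranulosa markers in females summed to 4.65 to 8.49 in Het and 10.5 to 12.8 in KO (2 of 4 above, Fst and Lgr5). Neuronal markers, 9.65 to 16.6 in male Het against 8.44 to 13.2 in male KO and 4.64 to 7.54 in female Het against 5.35 to 8.98 in female KO, had 0 of 4 above in both sexes. Single markers of other lists were above all Het libraries too: Kdr (endothelial, 1 of 3) in both sexes, Sox9 (Sertoli, 1 of 4) in females, and Aif1 (macrophage, 1 of 3) and Alas2 (erythroid, 1 of 3) in males. Beside these counts, both KO libraries lay above all 4 Het libraries for 9.01% of all tested genes in males and 14.8% in females. Of the 8 germ cell markers, 2 (Dazl and Ddx4) lay below all Het libraries in female KO and 0 in male KO. The share of all genes lying below was not taken, so these counts have no background to be read against. Ddx4 was separated narrowly, at 214.59 RPKM in female KO replicate 2 and 214.8 in female Het1 replicate 1. In both sexes, summed Leydig, Sertoli, stromal, erythroid and macrophage markers were higher in KO replicate 1 than in replicate 2. Erythroid sums were 43.0 and 2.19 RPKM in females and 15.4 and 2.49 in males. Macrophage sums were 4.89 and 2.69 in females and 10.8 and 2.24 in males. Germ cell sums were lower in replicate 1, at 909 and 1229 in females and 1906 and 2103 in males, as were endothelial sums. Pregranulosa and neuronal sums differed in direction between the sexes. Gabrr1 was also higher in replicate 1 of each sex. No marker of any list was at 0 in both KO libraries of a sex. The only soma library was of C57BL/6 males, with Gabrr1 at 0.07 RPKM, a Leydig sum of 674 and a stromal sum of 1179. Soma of KO embryos and female soma were not analysed here. The part of other cells in the Gabrr1 values was not tested.

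At the promoter, both genes stood above the median H3K9me3 of all promoters and below RPKM 1 in every PGC library, and no KO value differed 2-fold from its Het value. Values are RPKM within 1 kb on either side of the Ensembl start, with 1 library each, so there is no test, and log2 ratios carry a pseudocount of 0.1. Gabrr1 H3K9me3 was 0.434 in male Het and 0.289 in male KO (log2 ratio -0.46), and 0.254 in female Het and 0.235 in female KO (-0.08). Gabrr2 H3K9me3 was 0.227 and 0.36 in males (0.49) and 0.262 and 0.16 in females (-0.48). Gabrr1 was thus lower in KO in both sexes, and Gabrr2 higher in males and lower in females. Across all promoters, 30.2% were lower in KO in both sexes.

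The male ratio of Gabrr1 was above that of 15.8% of promoters and its female ratio above that of 56.9%, while those of Gabrr2 were above 80.1% and 24.6%. In male Het, 88.4% of promoters had less H3K9me3 than Gabrr1, whose 0.434 RPKM lay between the library's median of 0.127 and its 95th percentile of 0.638. In male soma, Gabrr1 stood at 0.725 and Gabrr2 at 0.44 RPKM, where the library median was 0.721. Neither gene reached the level of RPKM 1 in Het that a call of loss required. Among promoters that did, 17 of 195 lost H3K9me3 2-fold in both sexes (8.72%), and 1 of 127 reaching it in KO gained (0.787%).

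H3K27me3 at Gabrr1 was 0.815 in male Het and 0.508 in male KO (log2 ratio -0.59), and 0.437 in female Het and 0.34 in female KO (-0.29). At Gabrr2, where RNA stayed near 0, it was 0.953 and 0.492 in males (-0.83) and 0.697 and 0.646 in females (-0.10). Both genes were lower in KO in both sexes, as were 38.3% of all promoters. The male ratio of Gabrr1 was above that of 9.49% of promoters and that of Gabrr2 above 3.21%, against 36.0% and 56.1% in females. Among promoters reaching RPKM 1, 1 of 1667 lost H3K27me3 2-fold in both sexes (0.06%) and 0 of 1015 gained it (0%), and neither Gabrr1 nor Gabrr2 reached that level.

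**Figure D2:**
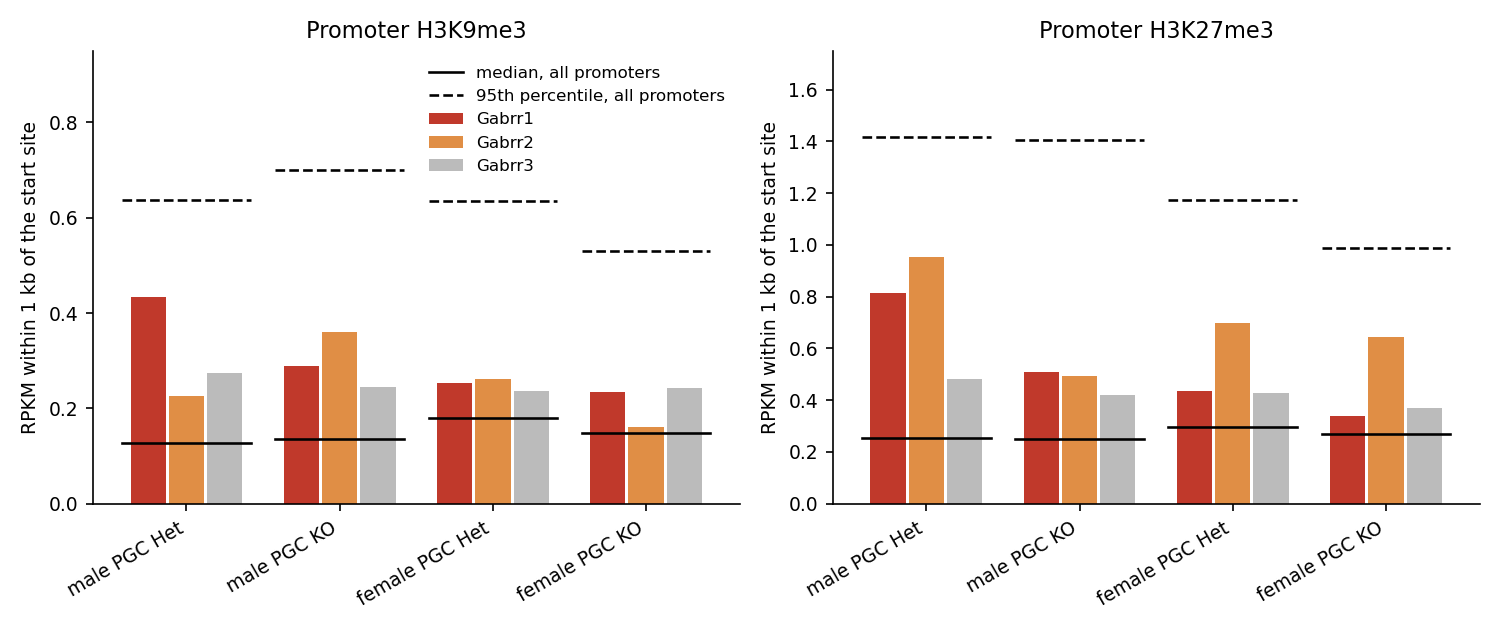
Promoter H3K9me3 and H3K27me3 (vertical axes, RPKM; 1 library per bar) of Gabrr1, Gabrr2 and Gabrr3 in Het and KO PGCs of each sex, with the median (solid line) and 95th percentile (dashed line) of all promoters in that library. All bars lie below RPKM 1, the level a call required, and male H3K27me3 was lower in KO for both genes.

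Most genes higher in KO stood below RPKM 1 of promoter H3K9me3, as did most promoters, of which 195 of 22138 reached it in Het in both sexes. Of the 137 genes limma called higher over both sexes, 134 were below RPKM 1 in Het in at least 1 sex, 3 reached it in both, and 0 met the 2-fold loss rule. Their median Het H3K9me3 was 0.217 in males and 0.258 in females, beside 0.434 and 0.254 for Gabrr1 and medians of 0.127 and 0.179 over all promoters.

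The other genes of GABA and glycine signalling showed no call. The list, chosen with earlier results of these data known, held 42 genes, of which 20 passed the filter, and 0 rose and 0 fell in males, in females or over both sexes (limma, adjusted p below 0.05). With 0.614%, 0.407% and 1.04% of all genes called, a count of 0 of 20 is near the background. At an unadjusted p below 0.05 the counts were 3, 7 and 9 of 20, where 4.55%, 12.4% and 12.6% of all genes passed. Slc32a1, among the 7, had passed the filter only through its female KO libraries. Median differences were 0.21, 0.26 and 0.28 on the log2 scale, where all tested genes had 0.03, 0.07 and 0.05. Gabra6, Gabrr3 and Glra3, all channel subunits, were at 0 in all 12 libraries.

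Among the 17 other ionotropic GABA receptor subunits, 5 passed the filter. Their highest mean in male KO was 1.70 RPKM (Gabra2) and in female KO 3.31 RPKM (Gabre), per length below the 5.61 and 22.3 of Gabrr1. In Het, Gabra2 was 0.773 RPKM in males and Gabre 1.73 RPKM in females, both above the Gabrr1 means of 0.0325 and 0.198. No other ionotropic subunit tested stood near the Gabrr1 difference: the largest of the 5 averaged over the sexes was 0.71 (Gabra2, limma adjusted p = 0.133).

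The 3 most abundant genes of the list did not pass in any KO comparison. Gabarap, which traffics GABA-A receptors and serves autophagy, had a mean of 53.94 RPKM over the 12 libraries. Slc12a2, the chloride importer that sets the chloride gradient of immature neurons, had 53.89, and Aldh5a1, the last enzyme of GABA breakdown, had 10.96. Gabbr1, a subunit of the metabotropic GABA-B receptor, had the smallest adjusted p of the list and is named after its values were seen. It was 1.43 RPKM in female Het and 4.68 in female KO (log2 difference 1.22, limma adjusted p = 0.0829), 1.20 and 1.47 in males, and 14.09 in male soma. It was thus not called in the main fit. Its adjusted p (limma) was 0.0429 without male Het1 replicate 1, and 0.0477 with the replicate number added to the fit. The female difference was 1.22 in each of these. Between the sexes in Het, 6 of the 20 were higher in females and 3 higher in males, where 31.9% of all genes were called. Among them was Glrb, the beta subunit of glycine receptors, higher in females by 2.13 (limma adjusted p = 6.27e-05).

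**Figure D3:**
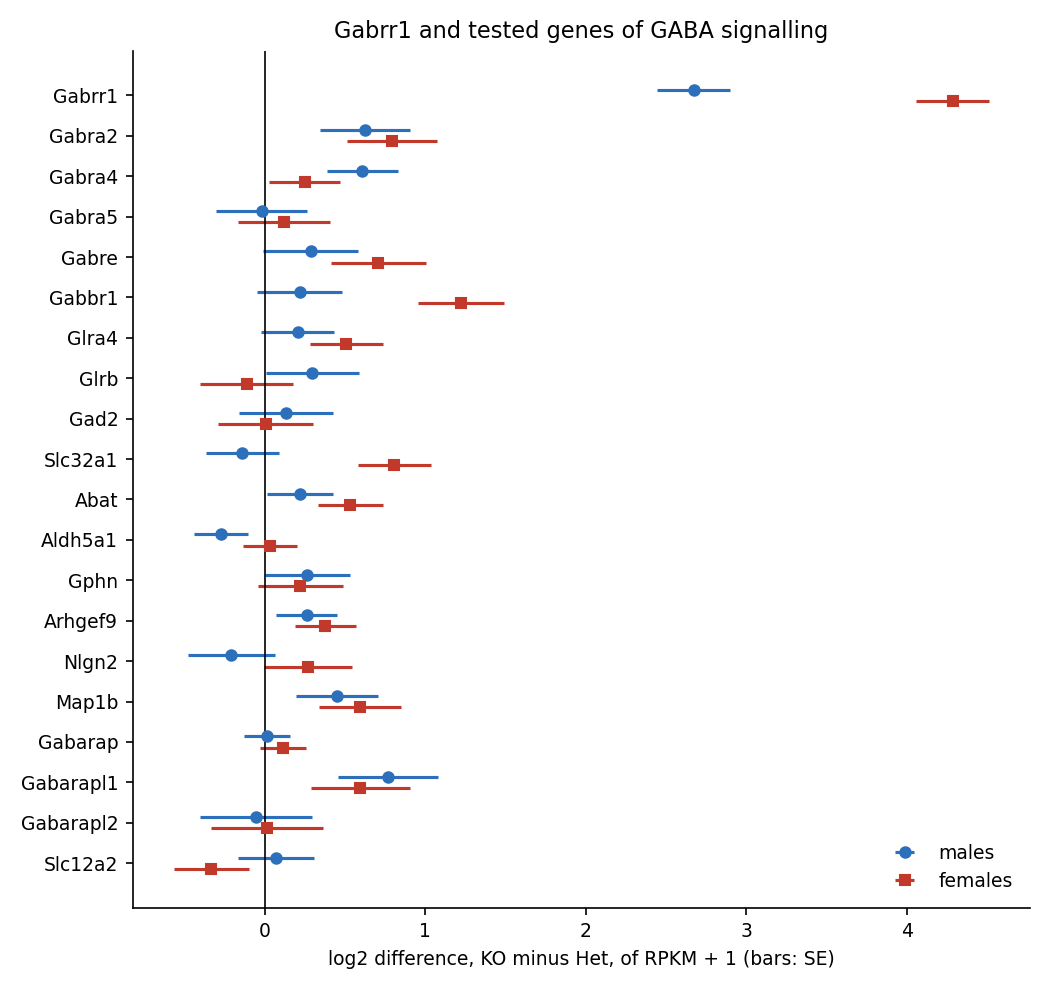
KO minus Het differences on the log2(RPKM + 1) scale (horizontal axis; bars are SE) for Gabrr1 and tested genes of the GABA and glycine list, in males (circles) and females (squares). Gabrr1 stands at 2.67 and 4.28, and the next largest female difference is 1.22 (Gabbr1). Gabrr2 did not pass the filter and is not shown.

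The genes on either side of the pair on chromosome 4 had smaller differences than Gabrr1, at most 0.60. In the GRCm38.p6 gene order no reference gene lies between Gabrr2 and Gabrr1. The 5 nearest on each side with a row of that name (14 reference genes without one were passed over) were Ube2j1, Rragd, Ankrd6, Lyrm2 and Mdn1 beyond Gabrr2, and Pm20d2, Srsf12, Pnrc1, Rngtt and Cnr1 beyond Gabrr1. All 10 were tested and 0 were called in males, females or over both sexes (limma), with 0, 0 and 1 at an unadjusted p below 0.05. Of all tested genes, 4.55%, 12.4% and 12.6% passed that unadjusted threshold. At most 1.04% of all genes were called in these contrasts, so 0 of 10 is near the background. Differences ran from -0.13 to 0.57 in males and from -0.28 to 0.60 in females, with medians of 0.12 and 0.01. Lyrm2, which encodes a small mitochondrial protein, had the largest difference over both sexes at 0.58 (limma adjusted p = 0.346), and Ube2j1, a ubiquitin-conjugating enzyme of the endoplasmic reticulum, was 21.5 and 23.5 RPKM in male Het and KO. Cnr1, the cannabinoid receptor gene, was 1.19 and 1.04 RPKM in males and 3.97 and 4.22 in females.

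**Figure D4:**
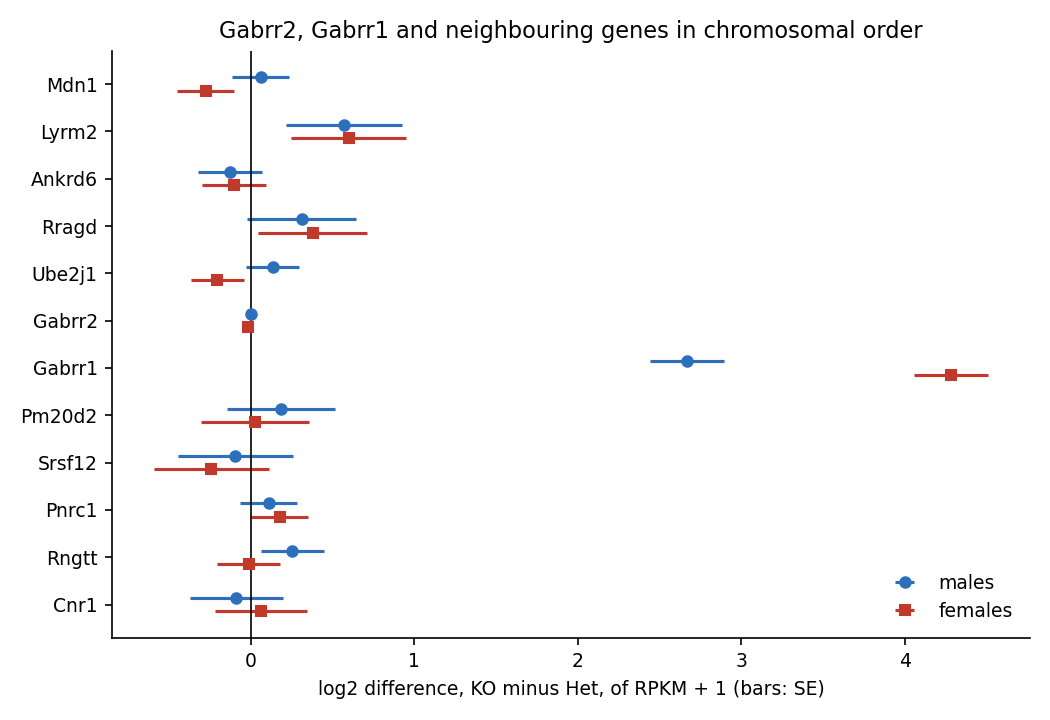
KO minus Het differences on the log2(RPKM + 1) scale (horizontal axis; bars are SE) for the 10 neighbouring genes, Gabrr2 and Gabrr1 in chromosomal order (vertical axis), in males (circles) and females (squares). Gabrr1 stands at 2.67 and 4.28 while the neighbours lie between -0.28 and 0.60; Gabrr2 has no SE because it did not pass the filter.

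Genes with a profile most like Gabrr1 were ranked by Pearson r on log2(RPKM + 1) over the 14 libraries of the cross, which share the KO and Het groups, so r is a description. Of 13517 other tested genes, 15 had r above 0.9. The 5 highest were Gm7120 (0.958), B430306N03Rik (0.953), Akd1 (0.947), Dnahc6 (0.940) and Usp17l5 (0.932). B430306N03Rik, Akd1, Dnahc6 and Usp17l5, at 0.41 RPKM or lower in every Het library, passed the filter only through KO libraries, as Gabrr1 did. Their high r was thus partly fixed by the filter and by the choice of Gabrr1. Over the 10 libraries without KO the same r values were 0.49, 0.24, 0.27, -0.30 and 0.16. Gabrr1 was near 0 there, so these values cannot show whether the genes are alike outside KO. The high r values rest on the KO libraries. By Spearman correlation over the same 14 libraries they ranked 50, 753, 368, 1390 and 23, so the choice also depends on the measure. Gabrr2 was not ranked because it did not pass the filter.

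The levels of these genes were not alike. Gm7120 was 14.5 RPKM in male KO and 83.8 in female KO on Het means of 1.77 and 2.70, higher in female than male KO as Gabrr1 was. Dnahc6, a dynein heavy chain of cilia, was 3.06 and 3.02 RPKM in male and female KO on Het means of 0.0925 and 0.0825, with libraries that overlap between the sexes. Promoter H3K9me3 of Gm7120 was 6.33 in male Het and 6.62 in male KO, and 6.10 and 5.41 in females, while the other 4 stood at 0.602 or lower. Akd1, at 0.092 to 0.168 RPKM, lay below the 0.235 to 0.434 of Gabrr1 in all 4 libraries, and B430306N03Rik in Het, at 0.602 and 0.521, lay above it.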

How the data were processed

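RNA-seq and ChIP-seq values were analysed as RPKM as the authors deposited them. The unit is given per the file headers: 1 RPKM per Ensembl gene for RNA, and for ChIP the RPKM over 1 kb on each side of the start. BWA, SAMtools and the build mm9 are named per the submitters' processing notes; for versions, read counter and scaling total, the entry is not given in the sources used here. No read counts were used and the depth is unknown, so no counting interval is given.

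Genes at RPKM 1 or more in at least 2 of the 12 Het and KO libraries (13518 of 22138) were tested on log2(RPKM + 1) with limma 3.58.1 (lmFit, eBayes with trend) in R 4.3.3, in 1 fit of 4 group means, two-sided, at a Benjamini-Hochberg adjusted p below 0.05. Het1 against Het2 used 6 group means. Single genes used exact permutation. The fit was checked on simulated data. Promoter marks (1 library each) have no test: a loss or gain was 2-fold in both sexes at RPKM 1.

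The members and lists were chosen with earlier results of these data known. Named genes were Gabrr1 to Gabrr3, called genes and the 3 most abundant of the GABA list, 5 neighbours per side and the 5 most alike. Other genes of the GABA list, among them Gabra2, Gabre, Gabbr1, Slc32a1 and Glrb, were named after their values were seen. Promoter sequences were matched by symbol (2 of 2), and 20551 of 22138 identifiers had a current symbol. Alternatives covered the pseudocount, filter, scaling, control genotype, replicate block and each library left out. DNA methylation, total H3 and repeat families are not analysed here. One listed gene is counted but not reported by name here.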

Additional observations from a re-analysis of the deposited data

Results flagged for a closer look

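In 63 groups of 4 control libraries of Gabrr1, Gabrr2 and the GABA list genes, 5 held 1 library far from the other 3, where chance alone marks about 1 in 20 groups. Gabra5 was 0.31 RPKM in male Het2 replicate 1, above the others. Aldh5a1 was 7.18 RPKM in male Het1 replicate 1, below the others. Gabarapl1 was 10.98 RPKM in female Het1 replicate 1, above the others. Gabarapl2 was 1.71 RPKM in female Het2 replicate 1, below the others. Slc12a2 was 81.61 RPKM in male Het1 replicate 1, above the others. Neither Gabrr1 nor Gabrr2 was among them.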

How the results depend on the processing

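No called result reversed, but differences near 0 did change sign: without female Het2 replicate 1, Gabrr1 Het1 minus Het2 (log2) went from -0.06 to 0.10 and Gabrr2 KO minus Het in females from -0.02 to 0.09. Genes called in males were 83, against 185 with no filter, 39 with Het2 and 36 with Het1 alone as controls, and 29 to 88 leaving out 1 library. In females they were 55, against 30 at a pseudocount of 0.1, 140 with no filter, 23 after median centring, 12 after quantile normalization, 91 with the replicate block, 2 with Het2 and 8 with Het1 alone. Leaving out 1 library gave 3 (without female KO replicate 1) to 164 (without female Het2 replicate 1). Over both sexes they were 141, against 310 with no filter, 54 with Het2 and 44 with Het1 alone, and 53 to 256 leaving out 1 library. Het1 against Het2 gave 2, against 0 with no filter and 0 to 3 leaving out 1 library. The GABA list in females gave 0, against 1 (Gabbr1, limma adjusted p = 0.0477) with the replicate block and 0 to 1 leaving out 1 library. The cause of these shifts was not tested.

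Gabrr1 KO minus Het at a pseudocount of 0.1 was 5.48 in males, 6.56 in females and 6.02 over both, and in females it was 4.04 to 4.52 leaving out 1 library. Gabrr2 in females was -0.17 with Het2 and 0.13 with Het1 alone. At a mark pseudocount of 0.5, H3K9me3 ratios were -0.24 (male) and -0.037 (female) for Gabrr1 and 0.24 and -0.21 for Gabrr2, and H3K27me3 ratios -0.38 and -0.16 for Gabrr1 and -0.55 and -0.063 for Gabrr2. At 3-fold, 2 promoters lost H3K9me3 and 0 lost H3K27me3.

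Deviations of same-numbered libraries had r above 0.1 in 14 of 15 pairs of groups (lowest -0.04, median 0.30, highest 0.56), and 12 of 12 libraries were closest to one of their own number. Pairing required every pair above 0.1 or a label naming what a number shares, so the block was not adopted; the correlations are a hint from the data, not the design. The replicate block changed no other count of calls among the GABA list or the neighbouring genes. Median centring lowered every female KO minus Het difference alike, Gabrr1 from 4.28 to 4.14. KO groups of 2 libraries, single ChIP libraries and unknown depth limit all comparisons.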
